A study of Mus musculus with 24 samples.

Results

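The 10 genes described here are activity-induced effectors and feedback phosphatases: Arc, Homer1, Npas4, Nptx2, Ptgs2, Inhba, Dusp1, Dusp4, Dusp5 and Dusp6. They were taken by gene symbol from a table of 45777 genes, and all 10 were among the 18380 genes that passed the filter on low counts. The mice were wild type adult males, and 24 RNA-seq libraries of their prefrontal cortex made up 4 groups of 6. MS_EC12 mice had maternal separation (pups taken from the mother, a stress of early life) and received EC-12, a heat-killed preparation of the gut bacterium Enterococcus faecalis, for 5 weeks. Control_EC12 mice received EC-12 without separation, MS mice had separation without EC-12, and Control mice had neither. The labels name no strain and do not give the schedule of separation, the exact age or the time from handling to dissection. Nothing in them ties a library to an animal of its own, so the p-values below describe spread among libraries, some of it perhaps technical.

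Firing of excitatory neurons lets calcium into the cell, and calcium-dependent kinases together with the ERK branch of the MAP kinase cascade then switch on a set of genes within minutes to hours. Transcription factors of that set, such as Npas4, act first, and effectors follow that work at the synapse, are secreted or make lipid signals. Dual-specificity phosphatases of the same set remove the phosphates that activate MAP kinases, which closes a feedback loop on the signal that induced them. In cortex the RNA of many of these genes is known to follow recent experience, handling and arousal of the animal.

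Libraries held 26250197 to 39252382 counts. Some libraries differed in how counts depended on base composition, which touches several members. The GC slope of a library, its deviation in log2 CPM per 10 percentage points of transcript GC content, was above 0 in 7 libraries and below 0 in 17. The 7 were MS_EC12 replicates 3, 4, 5 and 6, Control_EC12 replicates 3 and 4, and MS replicate 3, so no Control library was among them. All 10 markers of excitatory cortical neurons were present in every group at a mean of at least 1 TPM, and 3 further features of the dissections stood out. The summed level of 7 olfactory bulb markers ran from 373 to 873 TPM in MS_EC12 and from 551 to 997 TPM in Control_EC12, against 306 to 634 TPM in MS and 330 to 639 TPM in Control libraries. Choroid plexus markers summed to 1140 TPM in MS_EC12 replicate 6 and 116 TPM in MS replicate 3, and to 4.98 to 16.6 TPM in the other libraries. Hypothalamic and septal markers summed to 148 TPM in MS_EC12 replicate 6 and 115 TPM in MS replicate 1, and to 25.04 to 76.9 TPM in the other libraries. Of the 75 genes tested in 12 lists of cell type and region markers, 8 passed an adjusted p of 0.05 in MS_EC12 against Control and 0 in the other comparisons (edgeR, with 3 to 23 at an unadjusted p under 0.05 in the other 4). Over all genes 3.6% to 31.8% had such an unadjusted p in those 4. Among the 8, Pvalb of interneurons, Aldh1l1 of astrocytes, C1qa of microglia, Oxt of the hypothalamus and Ttr of the choroid plexus rose. Rorb of excitatory neurons, Aqp4 of astrocytes and 1 oligodendrocyte marker fell. Over all genes 14.1% passed there, and marker lists did not all follow the gene called. In MS_EC12 against Control 4 of 7 interneuron markers were below 0, while 4 of 5 oligodendrocyte and 5 of 6 microglia markers were above 0. In the libraries with a GC slope below 0 (2 of MS_EC12 and 6 of Control), Aqp4 alone of the genes named here passed in that comparison.

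Length-corrected levels put the members in a wide order. In Control libraries Arc averaged 149 ± 28.01 TPM (SD, n = 6, as for the other members), Homer1 89.6 ± 10.2, Dusp6 74.9 ± 5.39, Dusp1 60.7 ± 10.9 and Nptx2 40.99 ± 2.94 TPM. Lower down came Npas4 at 16.4 ± 7.34 TPM, Dusp5 at 13.1 ± 1.92, Dusp4 at 11.1 ± 0.907, Ptgs2 at 6.73 ± 0.563 and Inhba at 2.26 ± 0.319 TPM. Neighbours from Arc down to Nptx2 overlapped in their ranges over the 6 libraries, as did neighbours from Npas4 down to Dusp4. Nptx2 and Npas4, Dusp4 and Ptgs2, and Ptgs2 and Inhba did not overlap.

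The members did not move as a block, and most differences between groups did not pass the test. By the quasi-likelihood F test of edgeR with Benjamini-Hochberg adjustment over all genes, 2 of the 10 members passed an adjusted p of 0.05 in MS_EC12 against Control: Homer1 was lower and Nptx2 higher. The same call was made for 14.1% of all genes tested in that comparison, so 2 of 10 is near the background. At an unadjusted p under 0.05, 5 of 10 members differed there, 1 higher and 4 lower, against 38.3% of all genes. The median log2 fold change of the 10 was -0.24, beside 0.01 over all genes.

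No member passed the adjusted threshold of edgeR in the other 4 comparisons or in the interaction, the difference between the effect of EC-12 in separated and in normally reared mice. MS against Control had 3 of 10 members at an unadjusted p under 0.05, against 3.6% of all genes, and 0 at the adjusted threshold, which 0.0326% of genes passed. The median over the 10 was -0.28, beside -0.01 over all genes, with 7 values below 0. In Control_EC12 against Control 4 of 10 had an unadjusted p under 0.05, all lower, against 8.93% of all genes, while 0.0218% of genes passed the adjusted threshold. The median of the members was -0.07 there, beside 0.01 over all genes.

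MS_EC12 against MS gave 3 of 10 at an unadjusted p under 0.05, close to the 31.8% of all genes, with 0.163% of genes past the adjusted threshold. For MS_EC12 against Control_EC12 it was 1 of 10, against 15.9% of all genes, with 0.261% past the adjusted threshold. The interaction had 1 of 10 at an unadjusted p under 0.05, against 4.8% of all genes, and 0.0109% of genes past the adjusted threshold. DESeq2 called 2 of 10 members in Control_EC12 against Control, where it called 0.477% of all genes, and 1 in MS_EC12 against Control_EC12, where it called 1.14%. It called 1 in MS_EC12 against MS, near its background of 13.8%. It called 0 members in MS against Control (0.12% of all genes) and in the interaction (0.108%). Limma on log2 TPM called 1 member in MS_EC12 against MS, where it called 3.83% of all genes. It called 0 members in MS against Control (0.0247% of all genes), Control_EC12 against Control (0.0123%), MS_EC12 against Control_EC12 (0.0925%) and the interaction (0%). Comparisons with the same group on one side share those 6 libraries, so their values are not independent of each other.

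**Figure D1:**
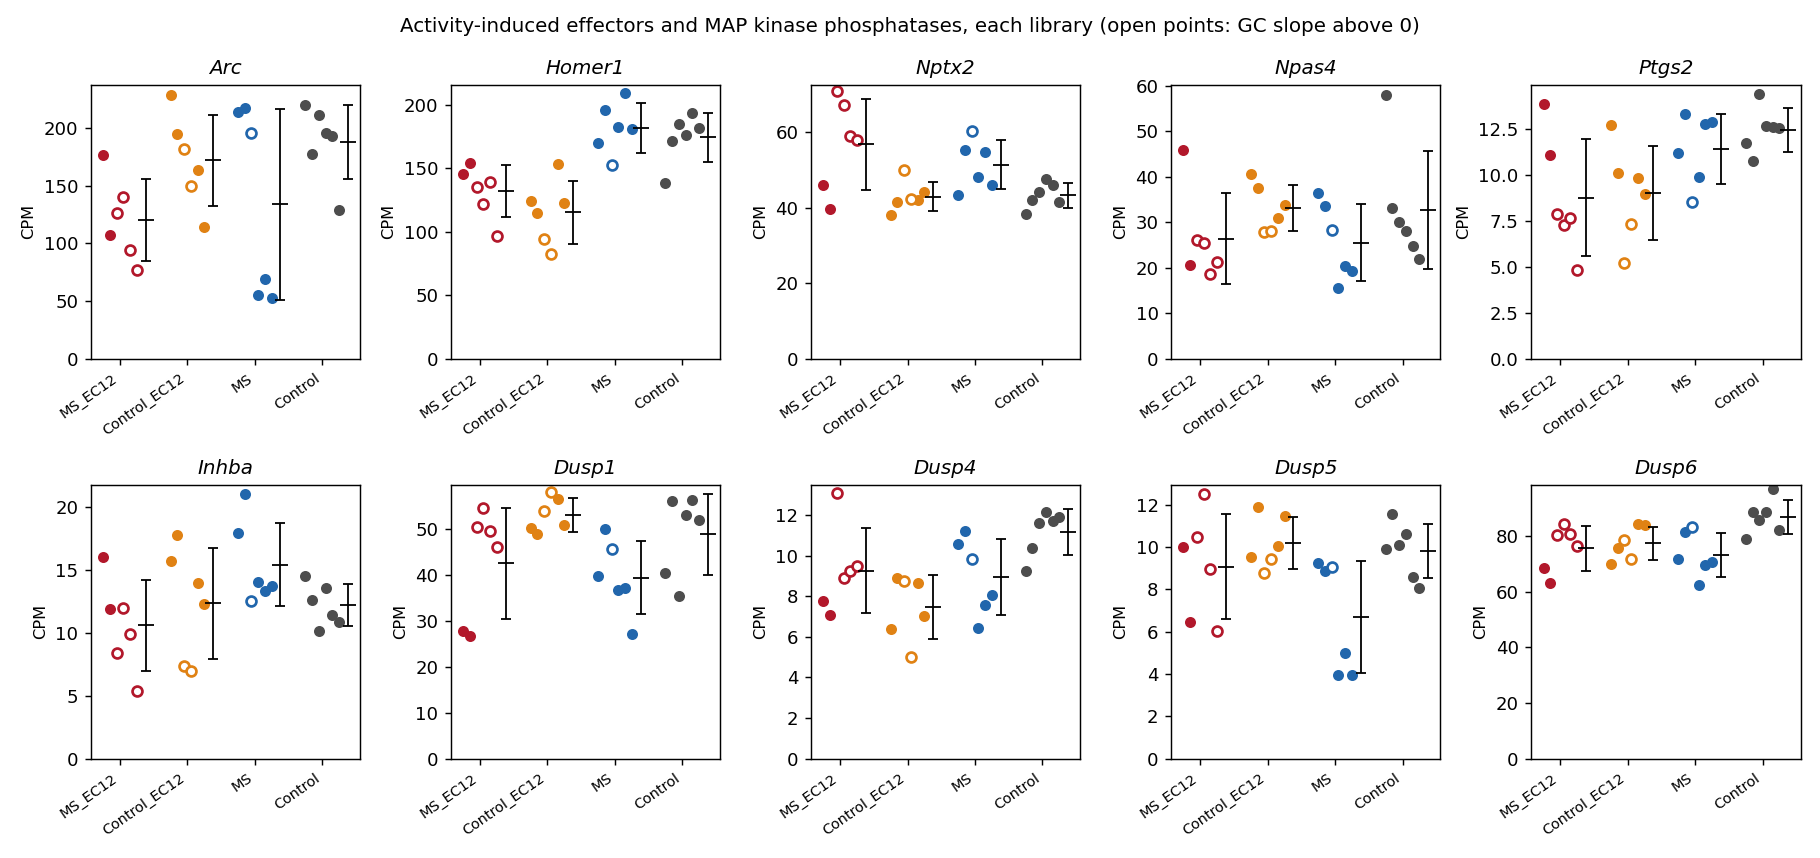
Each panel plots the CPM (library-scaled counts with TMM factors) of 1 member in all 24 libraries by group, in replicate order from left to right, with the mean and SD of the 6 libraries beside them. Open points are the 7 libraries with a GC slope above 0. Arc in MS libraries splits between 3 values of 196 to 218 CPM and 3 of 52.5 to 69.1 CPM.

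**Figure D2:**
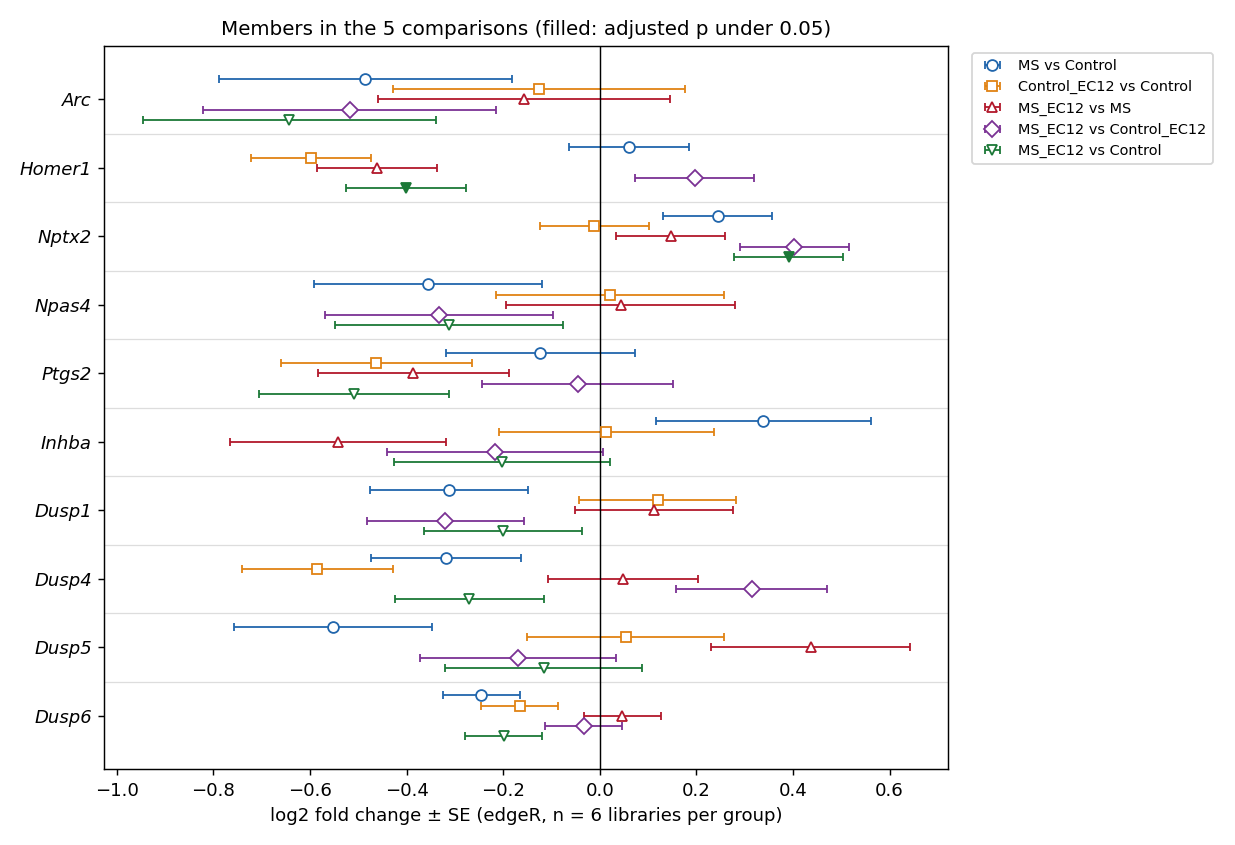
Log2 fold changes with their SE from the edgeR fit are shown for the 10 members (rows) in the 5 comparisons (symbols), first-named group over second. The 2 filled symbols, at an adjusted p under 0.05, are Homer1 and Nptx2 in MS_EC12 against Control.

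Arc (gene ID 11838, chr15:74669081-74672570 on GRCm38.p6) encodes a postsynaptic protein that takes AMPA receptors off the surface, and its RNA travels to active dendrites. It was the most abundant member and the one with the widest spread within a group. MS libraries had 214, 218, 196, 55.1, 69.1 and 52.5 CPM in replicates 1 to 6. Values in the other groups were 77.4 to 177 CPM (median 117) in MS_EC12, 114 to 229 CPM (median 173) in Control_EC12 and 129 to 220.1 CPM (median 195) in Control. Thus 3 MS libraries lay within the Control range and 3 lay below every library of the other 3 groups. Olfactory bulb markers were also lower in these 3, with sums of 306, 334 and 398 TPM in MS replicates 4, 5 and 6, against 634, 564 and 554 TPM in MS replicates 1, 2 and 3. Sums of 382, 344 and 330 TPM in Control replicates 3, 5 and 6 stood beside Arc levels of 211, 193 and 129 CPM. The log2 difference of MS against Control was -0.49 ± 0.30 (SE), adjusted p = 1.00, with a 95% interval of -1.11 to 0.14.

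In MS_EC12 every library was below the Control mean, and the group averaged 120.3 ± 35.7 CPM, against 188 ± 32.3 CPM in Control (SD, n = 6 each). The ranges still overlapped, and the log2 difference was -0.64 ± 0.30 (SE), adjusted p = 0.122. With EC-12, Arc differed by less than 1 SE, -0.16 ± 0.30 in MS_EC12 against MS and -0.12 ± 0.30 in Control_EC12 against Control (log2 ± SE, adjusted p = 0.734 and 0.899 by edgeR). The 95% interval of MS_EC12 against MS, -0.78 to 0.47, leaves room for a change in either direction. In these bulk libraries, fewer neurons and less RNA per neuron cannot be told apart.

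Homer1 (gene ID 26556, chr13:93303757-93405129) encodes a scaffold that links metabotropic glutamate receptors to calcium stores. Activity makes the gene switch to a short transcript, Homer1a, whose protein breaks these links. Values here are per gene and do not separate the short transcript from the long ones. Homer1 was the member with the clearest difference between mice with and without EC-12. It had 96.7 to 154 CPM (median 137) in MS_EC12 and 82.5 to 153 CPM (median 119) in Control_EC12, against 153 to 209 CPM (median 182) in MS and 138 to 194 CPM (median 179) in Control. Every MS_EC12 library was below the MS mean and every Control_EC12 library below the Control mean, although the ranges met at their edges in both cases.

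In MS_EC12 against Control, Homer1 fell by the edgeR test (-0.40 ± 0.12 (SE), adjusted p = 0.0409), and 6 of 6 libraries were below the Control mean. In Control_EC12 against Control the difference was larger, -0.60 ± 0.12 (SE), adjusted p = 0.0669, and it missed the threshold in that comparison. MS_EC12 against MS gave -0.46 ± 0.12 (SE), adjusted p = 0.0754. Separation alone left Homer1 near the Control level (0.06 ± 0.12 (SE), adjusted p = 1.00), and MS_EC12 was 0.20 ± 0.12 (adjusted p = 0.372) from Control_EC12. The difference between the 2 effects of EC-12 was 0.14 ± 0.18 with a 95% interval of -0.23 to 0.50 (adjusted p = 0.833).

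Homer1 is a transcript of low GC content (43.5%), and it read lower in libraries with a GC slope above 0. In the 17 libraries with a slope below 0, the log2 fold change of Homer1 was -0.44 in Control_EC12 against Control (adjusted p = 0.026, 4 and 6 libraries). With the same libraries it was -0.22 in MS_EC12 against Control (adjusted p = 0.395, 2 and 6 libraries). With the slope as a covariate in edgeR, Homer1 was -0.54 in Control_EC12 against Control (adjusted p = 0.00542) and -0.18 in MS_EC12 against Control (adjusted p = 0.55). So the call on Control_EC12 was made and the call on MS_EC12 was lost once the slope was taken into account. The adjusted p of MS_EC12 against Control stayed under the threshold without MS_EC12 replicate 1 (0.0177) or 2 (0.0146). It was 0.0558 to 0.125 when any of the other 10 libraries, MS_EC12 replicates 3 to 6 or Control replicates 1 to 6, was left out. The median log2 fold change of the 7 olfactory bulb markers was 0.94 in Control_EC12 against Control, 0.78 in MS_EC12 against MS and 0.65 in MS_EC12 against Control, with all 7 above 0 in each. None of the 7 passed the adjusted threshold of edgeR there. At an unadjusted p under 0.05 there were 4, 2 and 1, against 8.93%, 31.8% and 38.3% of all genes. The part of these markers in the Homer1 result was not tested.

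The promoter of Homer1 is shown because the gene carries repeats of the half-site that the activity-dependent factor CREB binds. Capitals mark TGACG or its reverse complement CGTCA in the RefSeq sequence of GRCm38.p6 (plus strand, chr13:93303681-93303756), which ends at the base before the transcription start.
Homer1: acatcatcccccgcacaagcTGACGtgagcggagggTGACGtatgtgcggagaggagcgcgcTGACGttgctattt

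Nptx2 (gene ID 53324, chr5:144545887-144557478) encodes a secreted pentraxin that excitatory neurons release and that gathers AMPA receptors on interneurons. It was the 1 member that was higher at the adjusted threshold. Levels were 39.8 to 70.9 CPM (median 58.5) in MS_EC12 and 38.1 to 49.98 CPM (median 42.1) in Control_EC12, against 43.4 to 60.2 CPM (median 51.5) in MS and 38.4 to 47.6 CPM (median 43.2) in Control. In MS_EC12 the values were 46.1, 39.8, 70.9, 67.2, 58.96 and 58.01 CPM in replicates 1 to 6, and replicates 3 to 6 lay above all Control libraries and replicates 1 and 2 within their range. The log2 difference of MS_EC12 against Control was 0.39 ± 0.11 (SE), adjusted p = 0.0355, with 5 of 6 libraries above the Control mean.

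The same 4 MS_EC12 libraries were those with a GC slope above 0, and Nptx2 is a transcript of high GC content (58.3%). Among libraries with a slope below 0 its log2 fold change in MS_EC12 against Control was -0.01 (adjusted p = 0.968, 2 and 6 libraries), and with the slope as a covariate 0.13 (adjusted p = 0.591). As for Homer1, the Nptx2 call held without MS_EC12 replicate 1 (0.0111) or 2 (0.00693) and not without any other of the 12 libraries, MS_EC12 replicates 3 to 6 and Control replicates 1 to 6 (adjusted p = 0.0553 to 0.103). MS libraries had a higher Nptx2 level than the Control mean in 6 of 6 libraries (0.24 ± 0.11, unadjusted p = 0.0399, adjusted p = 1.00, edgeR). Among supplemented mice, MS_EC12 against Control_EC12 gave 0.40 ± 0.11 (SE), adjusted p = 0.151, and 0.05 in the libraries with a slope below 0.

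**Figure D3:**
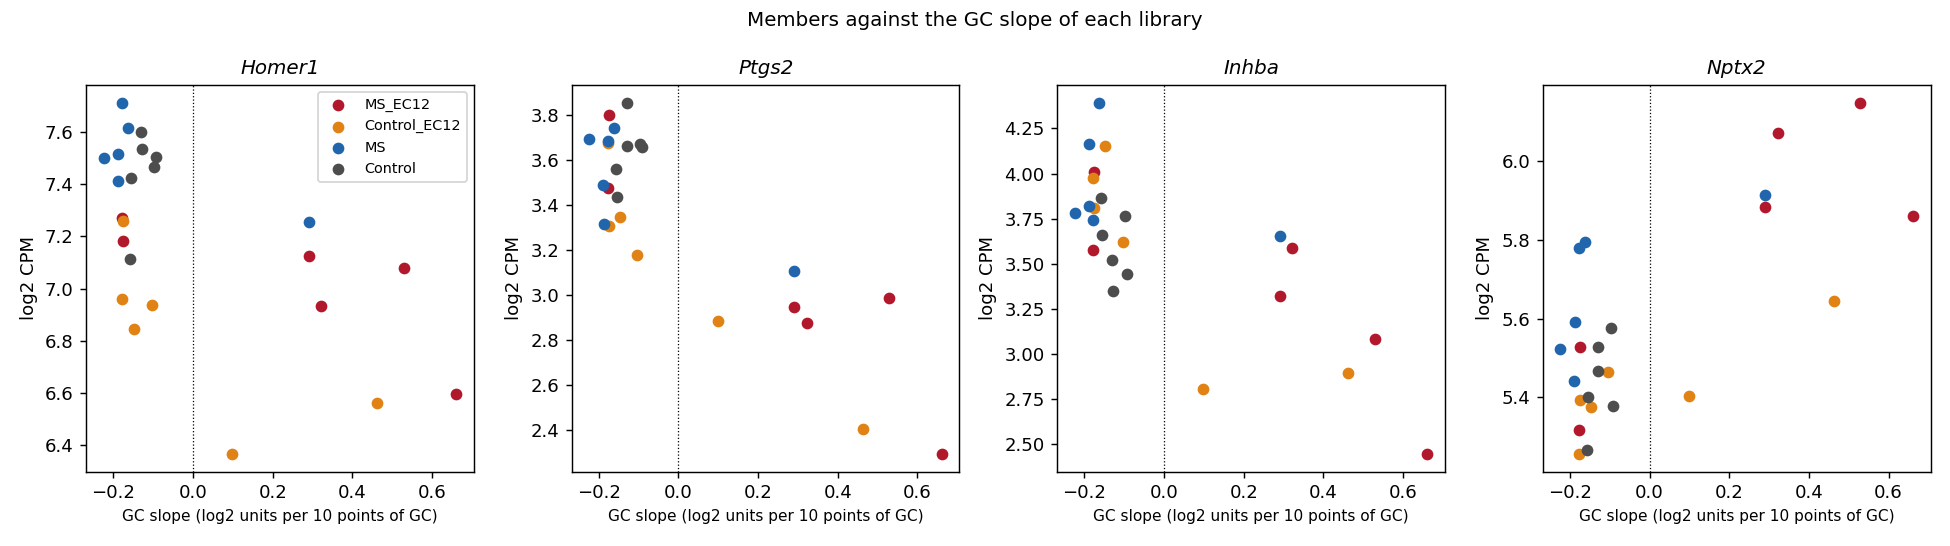
Log2 CPM of Homer1, Ptgs2, Inhba and Nptx2 (vertical axes) is plotted against the GC slope of each library (horizontal axes, log2 units per 10 percentage points of GC), coloured by group. The 7 libraries right of the dotted line at 0 are low in Ptgs2 and mostly low in Homer1 and Inhba, and all Control points lie left of it.

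Few genes that work with these 3 synaptic proteins passed the test. Of 18 partners tested, which include the neuronal pentraxins Nptx1 and Nptxr, AMPA receptor subunits, Shank scaffolds and group I metabotropic receptors, 0 passed in MS against Control, Control_EC12 against Control, MS_EC12 against MS or MS_EC12 against Control_EC12. At an unadjusted p under 0.05 the counts were 0, 1, 7 and 4, against 3.6%, 8.93%, 31.8% and 15.9% of all genes. In MS_EC12 against Control 1 fell: Grm5, the receptor whose tail Homer proteins bind, at -0.61 ± 0.16, adjusted p = 0.033, and at -0.18 in the libraries with a slope below 0. Of all genes 14.1% passed in MS_EC12 against Control, where the median of the 18 was 0.06, beside 0.01 over all genes.

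Npas4 (gene ID 225872, chr19:4984353-5003439) encodes a transcription factor that calcium entry induces and that shapes the inhibitory input of the neuron. No comparison gave it an adjusted p under 0.05. Levels ran 18.6 to 45.96 CPM (median 23.4) in MS_EC12, 27.98 to 40.6 CPM (median 32.4) in Control_EC12, 15.5 to 36.4 CPM (median 24.3) in MS and 21.9 to 58.1 CPM (median 29.1) in Control. Replicate 1 was the highest library of its group in MS_EC12, Control_EC12, MS and Control. MS libraries had 36.4, 33.7, 28.3, 15.5, 20.3 and 19.2 CPM in replicates 1 to 6, and replicates 4, 5 and 6, the 3 low in Arc, were also the lowest here. Log2 fold changes were -0.36 ± 0.24 in MS against Control, -0.33 ± 0.24 in MS_EC12 against Control_EC12 and -0.31 ± 0.24 in MS_EC12 against Control (unadjusted p = 0.146, 0.172 and 0.199 from edgeR, adjusted p = 1.00, 0.412 and 0.332). In Control_EC12 against Control, Npas4 differed by 0.02 ± 0.24, with a 95% interval of -0.47 to 0.51.

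A pair of CREB half-sites stands close together before the Npas4 start that was read, which lies inside the gene span given above. The stretch is on the minus strand of GRCm38.p6 at chr19:4990116-4990170, with capitals for TGACG or CGTCA.
Npas4: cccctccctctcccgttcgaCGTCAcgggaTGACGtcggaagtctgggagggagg

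The transcription factors induced alongside Npas4 also had mostly values below 0 where a separated group was compared with a group without separation. Of 18 tested, which include the Fos, Jun, Egr and Nr4a families, 16 had a log2 fold change below 0 in MS against Control, with a median of -0.44 beside -0.01 over all genes. At an unadjusted p under 0.05 there were 9 of them, all lower, against 3.6% of all genes. Of the 18, 0 passed the adjusted threshold of edgeR in that comparison. Within the libraries of GC slope below 0 (5 MS and 6 Control), 5 of the 18 passed, all lower, against 0.435% of all genes. They were Per1 (-0.57, adjusted p = 0.000557), Egr4 (-0.70, adjusted p = 0.0112), Klf10 (-0.64, adjusted p = 0.0136), Nr4a3 (-0.64, adjusted p = 0.0161) and Egr1 (-0.52, adjusted p = 0.0163, named after its value was seen). In MS_EC12 against Control_EC12, 2 of 18 fell, Nr4a3 (-0.94 ± 0.14, adjusted p = 0.00162) and Fos (-0.71 ± 0.15, adjusted p = 0.042). In MS_EC12 against Control 5 of 18 fell and 0 rose, with Nr4a3 at -0.92 ± 0.14, adjusted p = 0.00488 and Egr2 at -0.81 ± 0.21, adjusted p = 0.0298. Of all genes, 0.261% and 14.1% passed in these 2 comparisons. Only 2 libraries of MS_EC12 had a slope below 0, beside 4 of Control_EC12 and 6 of Control. With these libraries 4 and 5 of the 18 passed in the 2 comparisons, all lower, against 0.162% and 1.01% of all genes. Nr4a3 was among them at -1.37, adjusted p = 0.00303 and -1.26, adjusted p = 0.00365, while Fos at -0.99 (adjusted p = 0.0777) and Egr2 at -1.02 (adjusted p = 0.132) were not. With all libraries none of the 18 passed by edgeR in Control_EC12 against Control or MS_EC12 against MS. At an unadjusted p under 0.05 there were 4 and 2, against 8.93% and 31.8% of all genes. In these 2 comparisons 11 and 13 of the 18 were above 0, with medians of 0.05 and 0.14. With slopes below 0, Jun rose in Control_EC12 against Control (0.31, adjusted p = 0.036 by edgeR), where 0.456% of all genes passed. Jun also passed in those libraries for the interaction (-0.68, adjusted p = 0.0484, named after its value was seen), which 0.0105% of all genes passed. These 18 were chosen with results of these libraries known, so their direction is not independent evidence.

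Of 34 other activity-induced effectors tested, such as the neurotrophin Bdnf, the secreted peptides of Vgf and Scg2, and the kinases Plk2 and Sik1, 7 fell and 0 rose in MS_EC12 against Control, where 14.1% of all genes passed. The transcription factor Egr3 is counted both in these 34 and in the 18 above. Baz1a, a chromatin remodelling subunit, was at -1.02 ± 0.21, adjusted p = 0.0181, and at -0.63 (adjusted p = 0.107) in the libraries with a slope below 0. Plk2, a kinase that weakens synapses after strong activity, was at -0.28 ± 0.06, adjusted p = 0.0207, and at -0.23 (adjusted p = 0.112) in those libraries. Syt4, a synaptotagmin of dense-core vesicles, was at -0.52 ± 0.13, adjusted p = 0.0302, and at -0.19 there. The median over the 34 was -0.03, beside 0.01 over all genes. In each of the other 4 comparisons 0 passed. There 6 to 16 had an unadjusted p under 0.05, against 3.6% to 31.8% of all genes. With slopes below 0, 3 passed in MS against Control, where 0.435% of all genes did. They were Plk3 (-0.59, adjusted p = 0.00437), Ier5 (-0.44, adjusted p = 0.0043) and Arl4d (-0.44, adjusted p = 0.0344). In Control_EC12 against Control 3 passed, where 0.456% of all genes did, and all 6 were lower. Sik1, named after its value was seen, was lower in MS_EC12 against Control_EC12 (-0.85, adjusted p = 0.0388) and MS_EC12 against Control (-0.67, adjusted p = 0.043). In these 2 comparisons 0.162% and 1.01% of all genes passed, with 2 libraries of MS_EC12.

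Ptgs2 (gene ID 19225, chr1:150100031-150108234) encodes cyclooxygenase 2, which makes the prostaglandin precursor and in cortex is found mainly in excitatory neurons. It had 4.84 to 13.9 CPM (median 7.75) in MS_EC12 and 5.23 to 12.7 CPM (median 9.40) in Control_EC12, against 8.55 to 13.3 CPM (median 11.97) in MS and 10.7 to 14.4 CPM (median 12.6) in Control. The lowest values belonged to libraries with a GC slope above 0, as 13.9, 11.1, 7.86, 7.29, 7.64 and 4.84 CPM in MS_EC12 replicates 1 to 6 show. The log2 difference was -0.51 ± 0.20 (SE), adjusted p = 0.0694 in MS_EC12 against Control, -0.39 ± 0.20 (SE), adjusted p = 0.175 in MS_EC12 against MS and -0.46 ± 0.20 (SE), adjusted p = 0.491 in Control_EC12 against Control. Among libraries with a slope below 0 these were 0.00, 0.05 and -0.26, so the first 2 differences were not seen there. Ptgs2 has the lowest GC content of the 10 members (42.6%).

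The RefSeq window at the Ptgs2 start holds 1 half-site, shown with the first bases of the transcript (plus strand, chr1:150100032-150100061).
Ptgs2: gagtcaccactaCGTCAcgtggagtccgct

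Of 14 genes of prostanoid synthesis, reception and breakdown, 2 rose and 1 fell in MS_EC12 against Control, where 14.1% of all genes passed. Ptges2 and Ptges, both prostaglandin E synthases, rose by 0.37 ± 0.11, adjusted p = 0.0364 and 0.40 ± 0.12, adjusted p = 0.0375, and Pla2g4a, the phospholipase that frees arachidonic acid, was at -0.82 ± 0.24, adjusted p = 0.0373. In libraries with a slope below 0 the same values were 0.03, 0.26 and -0.28. In each of the other 4 comparisons 0 of 14 passed, with 0 to 5 at an unadjusted p under 0.05. Over all genes 3.6% to 31.8% had such a p there.

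Inhba (gene ID 16323, chr13:16004256-16031609) encodes the subunit of activin A, a secreted factor that in neurons is induced by synaptic activity. Its span overlaps the transcribed pseudogene B230303A05Rik, and since the counting rule is not given, reads of the 2 may have been shared. Levels were 5.38 to 16.002 CPM (median 10.9) in MS_EC12 and 6.91 to 17.8 CPM (median 13.1) in Control_EC12, against 12.5 to 20.96 CPM (median 13.8) in MS and 10.1 to 14.5 CPM (median 11.99) in Control. All 6 MS libraries were above the Control mean, with a log2 difference of 0.34 ± 0.22 (unadjusted p = 0.141 by edgeR, adjusted p = 1.00), and 5 of 6 MS_EC12 libraries were below the MS mean (-0.54 ± 0.22 (SE), adjusted p = 0.115). The difference between the 2 effects of EC-12 on Inhba was -0.56 ± 0.32 (95% interval -1.21 to 0.09, adjusted p = 0.83). With a slope below 0, MS_EC12 against MS gave -0.20 and MS against Control 0.39. Of 13 other genes of the activin pathway 1 rose in MS_EC12 against Control_EC12, the signal transducer Smad3 (0.51 ± 0.09, adjusted p = 0.0107), and 2 fell in MS_EC12 against Control, Smad2 (-0.36 ± 0.09, adjusted p = 0.0292) and the receptor Acvr2a (-0.68 ± 0.20, adjusted p = 0.0386). Over all genes 0.261% and 14.1% passed in these comparisons. In libraries with a slope below 0 these 3 calls were lost, with Smad3 at 0.28 (adjusted p = 0.219), Smad2 at -0.15 (adjusted p = 0.293) and Acvr2a at -0.09 (adjusted p = 0.621). Those libraries gave a call for Smad3 in Control_EC12 against Control (-0.47, adjusted p = 0.00439) and for Inhbb, another activin subunit named after its value was seen, in MS_EC12 against Control (-0.67, adjusted p = 0.0419, 2 and 6 libraries). With all libraries, in the other 3 comparisons 0 of the 13 passed, with 1 to 3 at an unadjusted p under 0.05. Over all genes 3.6% to 31.8% had such a p there.

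Dusp1 (gene ID 19252, chr17:26505591-26508472) encodes a nuclear phosphatase that acts on p38, JNK and ERK. It passed in no comparison of the edgeR fit. Its values were 27.8, 26.8, 50.4, 54.5, 49.6 and 46.1 CPM in MS_EC12 replicates 1 to 6, of which replicates 1 and 2 were below every Control_EC12 and Control library and the other 4 were within or near their ranges. The other groups had 48.8 to 58.1 CPM (median 52.4) in Control_EC12, 27.05 to 49.9 CPM (median 38.4) in MS and 35.4 to 56.2 CPM (median 52.5) in Control. Log2 fold changes were -0.20 ± 0.16 (SE), adjusted p = 0.37 in MS_EC12 against Control and -0.32 ± 0.16 (SE), adjusted p = 0.318 in MS_EC12 against Control_EC12. MS_EC12 replicates 1 and 2 are the 2 libraries of that group with a slope below 0, and with only such libraries Dusp1 was -0.84 (adjusted p = 0.0329) and -0.92 (adjusted p = 0.0552). MS against Control gave -0.31 ± 0.16 (unadjusted p = 0.0683 by edgeR, adjusted p = 1.00), with 5 of 6 MS libraries below the Control mean.

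The Dusp1 promoter was the 1 member window with the full palindrome TGACGTCA, at the second run of capitals (minus strand, chr17:26508588-26508683).
Dusp1: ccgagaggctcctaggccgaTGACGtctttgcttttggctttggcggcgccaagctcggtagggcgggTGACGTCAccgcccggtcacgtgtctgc

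Dusp4 (gene ID 319520, chr8:34807610-34819894) encodes a nuclear phosphatase of ERK. Its Control_EC12 libraries had 5.01 to 8.91 CPM (median 7.84), against 9.24 to 12.2 CPM (median 11.7) in Control, and these ranges did not overlap. Overlap was not counted over all genes, so how unusual this is in Control_EC12 against Control cannot be said. The log2 fold change was -0.58 ± 0.16 (unadjusted p = 0.000957, adjusted p = 0.193, edgeR), which did not pass. With the GC slope as a covariate it was -0.64 (adjusted p = 0.0286), by DESeq2 -0.59 (adjusted p = 0.0495), and in libraries with a slope below 0 -0.53 (adjusted p = 0.0955). MS_EC12 had 7.05 to 13.1 CPM (median 9.06) and MS 6.45 to 11.2 CPM (median 8.95), and MS_EC12 against MS differed by 0.05 ± 0.15 (95% interval -0.27 to 0.37). Dusp4 was the 1 member with an unadjusted p under 0.05 for the interaction, 0.63 ± 0.22 (unadjusted p = 0.00811, adjusted p = 0.773, edgeR), and 0.29 in the libraries with a slope below 0.

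Dusp5 (gene ID 240672, chr19:53529145-53541809) encodes a nuclear phosphatase that is selective for ERK. MS libraries had 9.27, 8.87, 9.09, 3.95, 4.98 and 3.97 CPM in replicates 1 to 6, against 8.08 to 11.6 CPM (median 10.001) in Control. Replicates 4, 5 and 6, low in Arc and Npas4, were again the lowest, and lay below every library of the other 3 groups. MS against Control gave -0.55 ± 0.21 with 6 of 6 libraries below the Control mean (unadjusted p = 0.0127, adjusted p = 1.00, edgeR). MS_EC12 had 6.05 to 12.5 CPM (median 9.49) and Control_EC12 8.80 to 11.9 CPM (median 9.79), and MS_EC12 against MS was 0.44 ± 0.21 (SE), adjusted p = 0.148.

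The Dusp5 promoter holds 2 CArG boxes, the element that serum response factor binds downstream of ERK, side by side in the first run of capitals, and 1 CREB half-site after them (plus strand, chr19:53529043-53529114).
Dusp5: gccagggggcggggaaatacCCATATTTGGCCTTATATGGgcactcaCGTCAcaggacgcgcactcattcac

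Dusp6 (gene ID 67603, chr10:99263231-99267489) encodes the cytoplasmic phosphatase of ERK and is itself an ERK target. Its span overlaps the long non-coding RNA Gm34921. It was the steadiest member, with the smallest SE, and it was highest on average in Control. Dusp6 had 63.1 to 84.1 CPM (median 78.3) in MS_EC12, 69.9 to 84.1 CPM (median 77.1) in Control_EC12 and 62.5 to 83.02 CPM (median 71.1) in MS, against 78.7 to 96.7 CPM (median 87.02) in Control. All 6 libraries of MS_EC12, Control_EC12 and MS were below the Control mean, with overlap in each case. The log2 fold change was -0.20 ± 0.08 in MS_EC12, -0.17 ± 0.08 in Control_EC12 and -0.25 ± 0.08 in MS against Control. Unadjusted p-values were 0.02, 0.0488 and 0.00517 and adjusted ones 0.0766, 0.555 and 0.764 by edgeR, and these 3 differences share the Control libraries. In libraries with a slope below 0, MS_EC12 against Control was -0.40 (adjusted p = 0.0389 by edgeR, 2 and 6 libraries). That value rests on MS_EC12 replicates 1 and 2, at 68.5 and 63.1 CPM, while replicates 3 to 6 had 76.3 to 84.1 CPM.

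Other dual-specificity phosphatases of MAP kinases passed in 0 of 8 cases in each of the 5 comparisons, with 0, 0, 6, 2 and 3 at an unadjusted p under 0.05 in MS against Control, Control_EC12 against Control, MS_EC12 against MS, MS_EC12 against Control_EC12 and MS_EC12 against Control. In the same order, 3.6%, 8.93%, 31.8%, 15.9% and 38.3% of all genes had such a p. Of 23 genes of the ERK cascade and its other inhibitors, 1 rose and 3 fell in MS_EC12 against Control, where 14.1% of all genes passed. Hras, the upstream GTPase, rose by 0.34 ± 0.11, adjusted p = 0.0409, while Spred1, an inhibitor of Ras signalling (-0.41 ± 0.11, adjusted p = 0.0309), the kinase Braf (-0.49 ± 0.16, adjusted p = 0.0426) and the ERK-activated kinase Rps6ka3 (-0.67 ± 0.22, adjusted p = 0.0459) fell. In libraries with a slope below 0 these 4 were 0.08, -0.26, -0.08 and -0.08. Etv5, an ERK-responsive transcription factor, rose in MS_EC12 against Control_EC12 (0.60 ± 0.13, adjusted p = 0.041), and was at 0.22 (adjusted p = 0.549) in libraries with a slope below 0. Spred2, another inhibitor of Ras signalling, passed in those libraries in Control_EC12 against Control (-0.38, adjusted p = 0.0229). With all libraries, in the other 3 comparisons 0 of the 23 passed. At an unadjusted p under 0.05 there were 2 in MS against Control, 5 in Control_EC12 against Control and 11 in MS_EC12 against MS. Over all genes the shares were 3.6%, 8.93% and 31.8%.

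Across the 24 libraries the members fell into groups that varied together. Of 45 pairs, 6 passed an adjusted p of 0.05 by both Pearson's r and Spearman's rho of log2 CPM, by permutation tests with 100000 resamples adjusted over the 45 pairs, and all 6 were positive. Arc and Npas4 had r = 0.79 (p = 1e-05, the smallest these resamples can give, adjusted p = 0.00045) and rho = 0.78 (adjusted p = 0.0018), with r = 0.72 without the 2 libraries farthest in Arc. Within the 17 libraries with a GC slope below 0 r was 0.79, and within the other 7 it was 0.87.

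Npas4 and Dusp5 had r = 0.67 (adjusted p = 0.00189, permutation) and rho = 0.63, with 0.78 in the 17 libraries and 0.38 in the 7. Arc and Dusp5 had r = 0.80 but rho = 0.43 (adjusted p = 0.154, permutation), and the high r rests on MS replicates 4, 5 and 6, which lay apart from the rest. Over the other 21 libraries r was 0.44 for Arc and Dusp5, 0.69 for Arc and Npas4 and 0.47 for Npas4 and Dusp5. Dusp4 and Dusp6 had r = 0.67 (adjusted p = 0.0021, permutation) and rho = 0.64, with 0.75 in the 17 libraries and 0.70 in the 7. Dusp1 and Dusp6 had r = 0.66 (adjusted p = 0.00302, permutation) and rho = 0.61, with 0.73 in the 17 libraries but -0.40 in the 7.

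Homer1 and Ptgs2 had r = 0.77 (adjusted p = 0.00045, permutation) and rho = 0.72 (adjusted p = 0.00315), with 0.47 in the 17 libraries and 0.66 in the 7. Ptgs2 and Inhba had r = 0.73 (adjusted p = 0.00112, permutation) and rho = 0.56, but -0.04 in the 17 libraries and 0.77 in the 7, so the relation was not seen among libraries with a slope below 0. Arc and Homer1 had r = -0.09 (adjusted p = 0.8, permutation) over the 24 libraries, and r = 0.36 and rho = 0.32 over the 21 without MS replicates 4, 5 and 6. Homer1 and Nptx2, a pair named after its values were seen, had r = -0.05 (adjusted p = 0.874, permutation) over the 24. Their r was 0.67 in the 17 libraries and 0.77 in the 7. After group means were taken out, r was 0.75 for Arc and Npas4, 0.72 for Homer1 and Ptgs2 and 0.69 for Dusp4 and Dusp6.

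**Figure D4:**
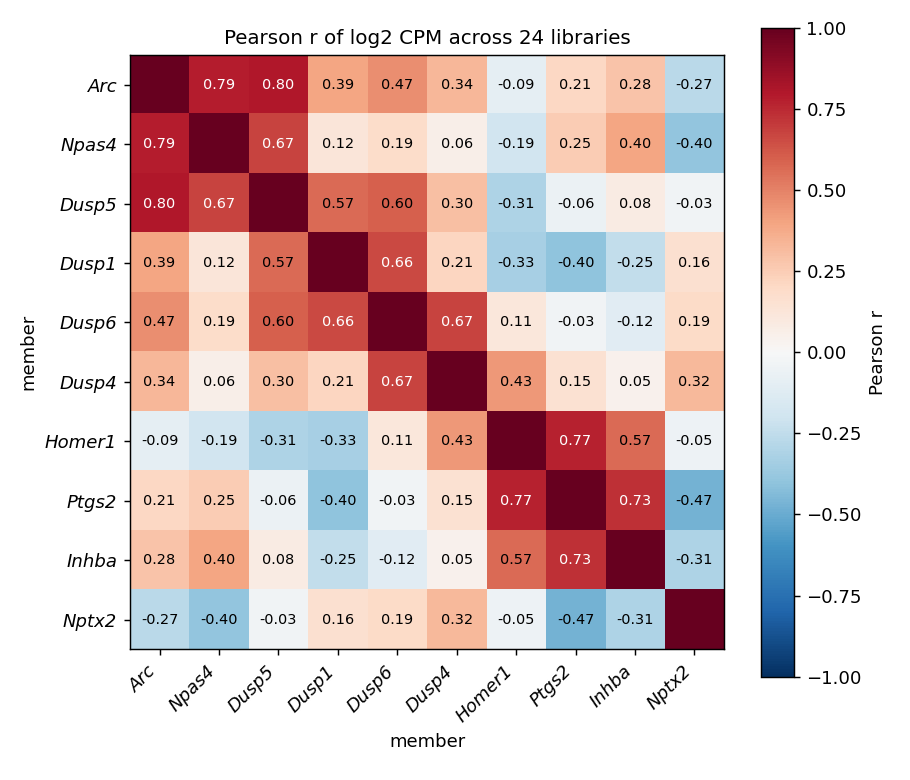
Each cell gives Pearson's r of log2 CPM between 2 members across the 24 libraries, from -1 (blue) to 1 (red). Arc, Npas4 and Dusp5 form 1 red corner (0.67 to 0.80) and Homer1, Ptgs2 and Inhba another (0.57 to 0.77).

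**Figure D5:**
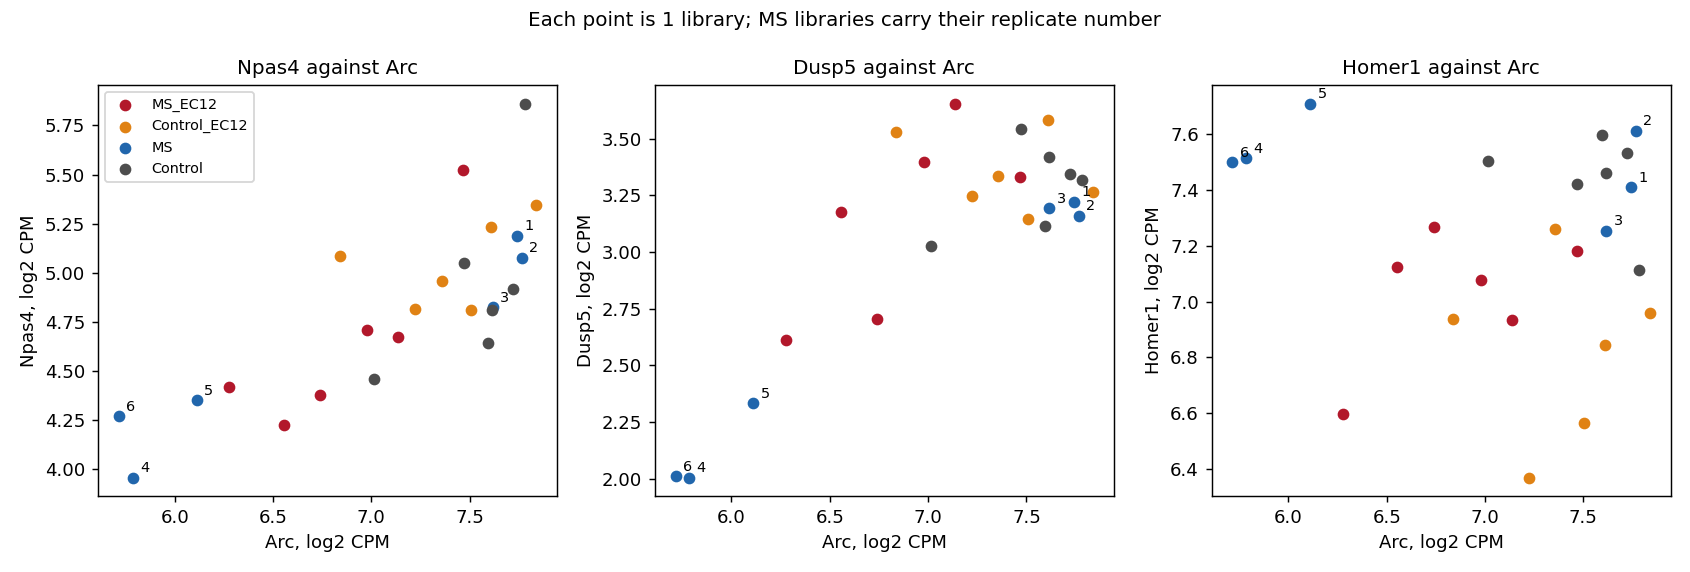
Log2 CPM of Npas4, Dusp5 and Homer1 (vertical axes) is plotted against log2 CPM of Arc (horizontal axes), 1 point per library, with replicate numbers on MS libraries. MS replicates 4, 5 and 6 sit at the low end of Arc, Npas4 and Dusp5 and among the high values of Homer1.

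The 3 genes outside the set that followed each member most closely across the 24 libraries were found by Pearson's r of log2 CPM over all genes tested, as a description. Arc was closest to Mycn (0.87), Dact1 (0.86) and Kdm6b (0.84). Dusp5 was closest to Card10 (0.92), Mtmr11 (0.86) and Nr4a1 (0.86), an activity-induced nuclear receptor, and Dusp6 to Egr1 (0.82), an activity-induced zinc finger factor, Bcor (0.79) and Bhlhe40 (0.77). Dusp1 was closest to Tead2 (0.81), Sik1 (0.81), an activity-induced kinase, and a gene listed as LOC115489962 (0.80). Dusp4 was closest to Irs2 (0.87, and 0.83 over the 17 libraries with a GC slope below 0), Trib2 (0.84) and Mapk14 (0.83), the kinase p38 alpha. Npas4 was closest to Mex3a (0.85), Dll1 (0.83) and Lnx2 (0.82).

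For the remaining 4 members the r over the 17 libraries with a GC slope below 0 is given beside that of the closest gene. Homer1 and Spred1, the inhibitor named above, had r = 0.95 over 24 libraries and 0.93 over the 17. Stk4 and Iqgap2 followed Homer1 at 0.92 and 0.91. Ptgs2 was closest to Mllt3 (0.95, and 0.66 over the 17), 1700025G04Rik (0.95) and Ncbp1 (0.94). Inhba was closest to Sepsecs (0.92, and 0.81 over the 17), Kmt5b (0.92) and Zfp626 (0.90), and Nptx2 to Asic2 (0.88, and 0.74 over the 17), Mpp3 (0.88) and Galnt18 (0.87). All these values share the same libraries, their depth and their base composition.

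Promoter windows of 250 bases before to 50 after a start were read from RefSeq for 7 members, with 8 windows since Homer1 has 2. On both strands, TGACGTCA was found in 1.79% of all 32851 promoters, TGACG in 20.8% and the CArG box in 1.63%, where each TGACGTCA also counts as TGACG on each strand. The windows of Homer1 (its first), Npas4, Dusp1, Dusp5 and Ptgs2 held at least 1 of these, and those of Dusp6, Inhba and the second Homer1 start held none. The windows of Npas4 and Inhba belong to starts inside their gene spans, so a start at the outer end of those spans was not read. Of the members with the half-site, Npas4 and Dusp5 were a pair that passed above, and so were Homer1 and Ptgs2. The other pairs among these members did not pass by both measures. Ptgs2 and Inhba, and Dusp1 and Dusp6, did pass, although the windows of Inhba and Dusp6 held no such site. A link between the half-site and these pairs was not tested.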

How the data were processed

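RNA of the prefrontal cortex was extracted with ISOGEN II and made into TruSeq Stranded mRNA libraries, per the labels' protocols. Listed in the submitters' processing notes are the build mm10 and the tools DESeq2, StringTie 2.1.3b, HISAT2 2.1.0, Trimmomatic 0.38 and FastQC 0.11.7. How reads were counted, with which strand setting, no source used here says. The authors deposited raw read counts per gene, used for the tests, and TPM made with their own gene models, used for levels between genes and 1 alternative. FPKM values deposited by the authors were not used.

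Genes were filtered with filterByExpr (minimum count 10, minimum total 15), scaled by TMM and tested 2-sided in edgeR 4.0.16 (R 4.3.3) by its quasi-likelihood F test, with 1 coefficient per group over all 24 libraries and Benjamini-Hochberg adjustment over 18380 genes. Log2 CPM used a prior count of 2. DESeq2 1.42.0, limma 3.58.1 on log2(TPM + 1), other scaling and filtering, a replicate block, the GC slope and leaving out each library were alternatives. Transcript GC content came from GENCODE and was had for 91.9% of tested genes. No pair of libraries was a duplicate (smallest chi-square per gene 5.02). The scripts were checked on simulated counts with known changes.

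The members and the gene lists were chosen with earlier results of these data known. Every member is described. Of each list up to 4 genes per comparison could be named, those past the threshold first, then by smallest p, and the 3 genes with the highest r were named for each member. The 12 lists of cell type and region markers were run through the same fit.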

Additional observations from a re-analysis of the deposited data

Results flagged for a closer look

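In each of the 40 groups of 6 values (10 members in 4 groups) the highest and the lowest library were compared with their nearest neighbour, and a gap above Dixon's 95% critical value for 6 samples, as a share of the group's range, was marked. Chance marks about 1 in 20 such groups, and 2 were marked, both in Npas4. MS_EC12 replicate 1 had 46.0 CPM of Npas4, and the gap to the next library was 0.726 of the range. Control replicate 1 had 58.1 CPM of Npas4, with a gap of 0.690 of the range. Both are replicate 1 of their group, and replicate 1 was also the highest in Npas4 in Control_EC12 and MS. Whether these libraries share a day or an order of dissection is not given in the labels, and no cause was tested.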

How the results depend on the processing

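Values that lay within 1 SE of 0 in the fit (25 of 60) were given no direction. Of these 25, 19 changed sign under some setting, such as Arc in MS_EC12 against MS (-0.32 to 0.03 when single libraries were left out). Sign changes were therefore counted only for values with a direction. Of 1370 recomputed member values, 28 lost and 34 gained a call, 11 changed sign in this sense and the other 1297 counted as the same. Members called in MS_EC12 against Control numbered 2, and 0 with no filter on low counts, 4 with the replicate block (Arc, Homer1, Nptx2 and Ptgs2, near the 32.3% of all genes called there), 0 with the GC slope as a covariate and 0 with slope and replicate block. The settings named with 0 called 1.07%, 0.229% and 0.0163% of all genes, in that order. Libraries with a slope below 0, of which MS_EC12 had 2, gave Dusp1 (-0.84) and Dusp6 (-0.40) in place of Homer1 and Nptx2. There 1.01% of all genes were called, against 14.1% in the main fit. In Control_EC12 against Control the count of 0 became 1 with the block, 1 with slopes below 0, 2 with the covariate, 2 with covariate and block and 2 by DESeq2 (Homer1, and Dusp4 where 2), where 0.18% to 0.767% of all genes were called. In MS_EC12 against MS it became 2 with the block (Homer1 and Inhba), 1 by DESeq2 and 1 by limma on TPM, which called 20.7%, 13.8% and 3.83% of all genes, so the first 2 counts are near the background. In MS_EC12 against Control_EC12 it became 1 with the block and 1 by DESeq2 (Nptx2), and 2 with covariate and block (Dusp1 at -0.69 and Homer1 at 0.43). Of all genes, 1.26%, 1.14% and 0.457% were called there. MS against Control and the interaction stayed at 0 in every alternative.

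Leaving out each library in turn gave 0 to 3 members in MS_EC12 against Control, 0 to 3 in MS_EC12 against MS, 0 to 1 in MS_EC12 against Control_EC12, 0 to 1 in Control_EC12 against Control, and 0 to 0 in MS against Control and in the interaction. Over all genes, the calls in MS_EC12 against Control ran from 9 without Control replicate 5 to 6544 without MS_EC12 replicate 1, beside 2594 with all libraries, so adjusted p-values there depend on single libraries. As shares these were 0.0485% and 35.4%. The shares ran from 0% to 27.2% in MS_EC12 against MS, 0.0755% to 1.00% in MS_EC12 against Control_EC12 and 0.0216% to 0.13% in Control_EC12 against Control.

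The 11 sign changes of values with a direction all came with the GC slope. With slopes below 0 the log2 fold change became -0.209 for Nptx2, 0.0518 for Ptgs2 in MS_EC12 against MS, -0.014 for Nptx2, 0.0258 for Npas4 and 0.0027 for Ptgs2 in MS_EC12 against Control, and -0.0573 for Dusp4 in MS_EC12 against Control_EC12. With the covariate it was -0.0964 for Nptx2 and 0.0393 for Ptgs2 in MS_EC12 against MS, and with covariate and block -0.0487 for Nptx2, 0.12 for Ptgs2, and 0.0177 for Ptgs2 in MS_EC12 against Control. The cause was not tested.

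Same-numbered libraries were not treated as pairs in the main fit. Their deviations from group means correlated between -0.30 and 0.46, and 1 to 4 of 6 pairs per comparison were above 0.1. With the replicate block, calls over all genes went from 30 to 3809 in MS_EC12 against MS and from 2594 to 5939 in MS_EC12 against Control. Whether replicate numbers mark a shared batch was not tested. No member value with a direction changed sign under the block alone. With counts of 116 to 7433 per library, depth limits Dusp5, Ptgs2 and Dusp4 most.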
